A study of Mus musculus with 4 samples.

Results

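Cathepsins and their small inhibitors of the Ctla2 family were followed across 4 cultured and sorted populations of mouse CD4 T cells, each measured on 1 Affymetrix expression array. The group holds 10 genes (8 cathepsins, Ctla2a and Ctla2b) of the 18193 genes that the array names. Its members were the 21 probe sets whose annotated symbol is one of the 10. They were picked with their signals on these same arrays already known, so every value below is a description and no test supports the choice.

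For exFoxp3Th17, CD4 T cells that already expressed Foxp3 were put in Th17 conditions, and the IL-17 positive, Foxp3 negative cells were sorted. Th17 started from naive CD4 T cells in the same conditions and the same gate. Treg came from Foxp3+ CD4 T cells kept with IL-2 and sorted as Foxp3 positive and IL-17 negative, and Th0 from naive cells without polarisation, negative for both. The donors of all 4 were C57BL/6 mice aged 8 to 10 weeks, whose spleen and lymph nodes were used; IL-17 was read through GFP and Foxp3 through APC; the cytokines of the Th17 conditions and the number of animals are not given in the sources used here. With 1 array per population there was no spread between samples and no test between groups. The exFoxp3Th17 and Th17 arrays share culture and gate and differ in origin, while culture and gate change together in the other comparisons and cannot be told apart.

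Most cathepsins are cysteine proteases of the papain family that work in lysosomes. They are made as inactive precursors whose propeptide covers the active site until it is cut off in the acid compartment. Ctla2a and Ctla2b, first cloned from activated mouse T cells, encode small proteins that resemble such a propeptide without a protease behind it, and the Ctla2a protein inhibits cathepsin L-like enzymes. In T cells and antigen-presenting cells cathepsins are known for activating granule proteases, for cutting the invariant chain of MHC class II and for degrading proteins in lysosomes.

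Values are MAS5 signals on a linear scale. A floor was set at 12.1, the median over all probe sets other than controls, and between 48.7% and 51.2% of probe sets lay above it on each array. Each gene was read from its brightest probe set and was called where the ratio of 2 arrays was at least 2-fold and the brighter array exceeded the floor. Probe sets have different affinities, so the level of a gene was compared between arrays and not with that of another gene. As a measure of noise, the log2 ratios given by the 2 brightest probe sets of a gene were set against each other in 4618 to 4694 genes: they differed by a median of 0.26 to 0.31, and by 0.99 to 1.13 at the 95th percentile. This covers disagreement within an array and nothing of the difference between cultures, sorts or animals.

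The arrays also differed outside the cathepsins. Xist, the RNA of the inactive X chromosome, read 3766 in exFoxp3Th17 and 7.4 to 10.8 on the others, while Y-linked Eif2s3y was at 4.7 in exFoxp3Th17 and at 654.5 to 875.8 elsewhere. Sex therefore cannot be told apart from origin in exFoxp3Th17 against Th17, nor from culture and gate in exFoxp3Th17 against Treg. Foxp3 was at 584.9 in Treg and below the floor on the other arrays, and Il17a was below the floor on all 4. All 7 CD4 T cell markers measured (Cd3d, Cd3e, Cd3g, Cd4, Cd5, Cd28 and Lat) lay above the floor on every array.

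Of the 10 genes, 9 lay above the floor on all 4 arrays and 1, Ctsh, on none. The 9 fell into 3 shapes. Ctla2a, Ctla2b and Ctsw were far lower in Th0 than elsewhere and highest in Th17. Ctsc, Ctsl and Ctss were highest in exFoxp3Th17, with Th17 next, then Treg, then Th0. Ctsb and Ctsz stayed within 2-fold across the arrays by their brightest probe sets, and Ctsd was the only member with its highest signal in Th0.

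**Figure D1:**
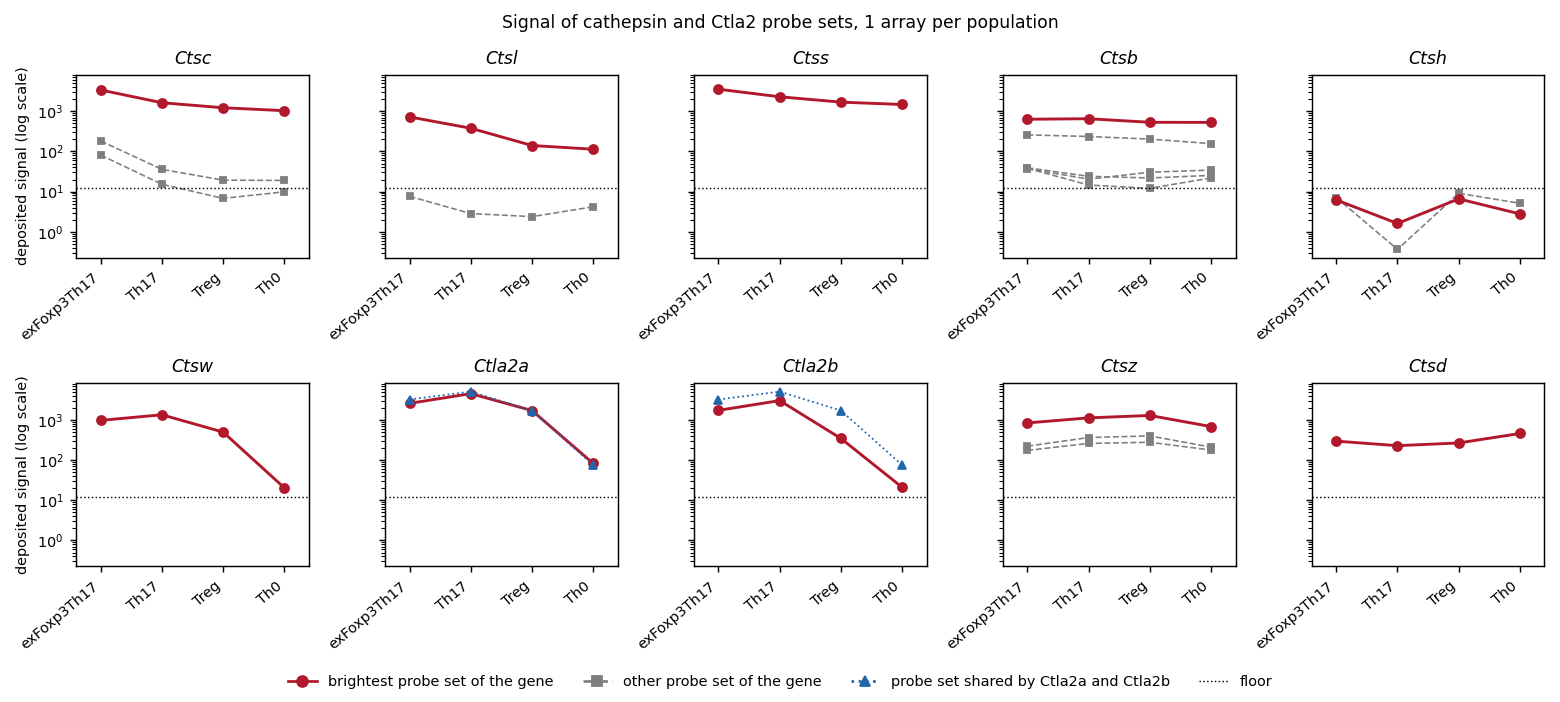
Deposited signal (log axis) of each probe set in exFoxp3Th17, Th17, Treg and Th0, 1 array each; red circles are the brightest probe set of a gene, grey squares its other probe sets, blue triangles the probe set shared by Ctla2a and Ctla2b, and the dotted line the floor of 12.1. Ctla2a, Ctla2b and Ctsw drop to between 20.4 and 82.9 in Th0, Ctsc, Ctsl and Ctss slope down from exFoxp3Th17 to Th0, and Ctsh stays below the floor.

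Of the members, Ctla2b showed the widest range over the arrays, followed by Ctsw and Ctla2a. Ctla2b had signals of 1747 in exFoxp3Th17, 3063 in Th17, 349.0 in Treg and 21.1 in Th0. Ctla2a had signals of 2612, 4569, 1727 and 82.9 on the same arrays in that order. A further probe set matches both genes, and it gave 3260 in exFoxp3Th17, 5128 in Th17, 1725 in Treg and 75.6 in Th0. All 3 probe sets ordered the populations alike: Th17 highest, then exFoxp3Th17, Treg and Th0.

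The promoters of the 2 inhibitor genes are shown because the genes moved together and are close copies of each other. On chromosome 13 of the RefSeq assembly GRCm38.p6 they are neighbours with 1 protein-coding gene, Tpbpb, between them. The windows run from 250 bases before to 50 bases after a start given by RefSeq, read 5′ to 3′ along the gene, at chr13:60936576-60936875 (minus strand) for Ctla2a and chr13:60897398-60897697 (minus strand) for Ctla2b. RefSeq gives 2 starts for Ctla2a, and the window of 1 is shown. For Ctla2a it is at the outermost start of the gene, while the Ctla2b window is at a start that is not the outermost. Capitals mark matches to the AP-1 motif TGANTCA and, in Ctla2a, also to the STAT motif TTCNNNGAA.
Ctla2a: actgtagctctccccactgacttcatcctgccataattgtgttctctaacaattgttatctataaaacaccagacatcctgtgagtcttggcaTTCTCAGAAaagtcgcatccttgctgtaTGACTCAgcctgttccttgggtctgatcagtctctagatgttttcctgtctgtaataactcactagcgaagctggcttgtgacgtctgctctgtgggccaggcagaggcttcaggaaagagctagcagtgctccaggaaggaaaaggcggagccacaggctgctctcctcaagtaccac
Ctla2b: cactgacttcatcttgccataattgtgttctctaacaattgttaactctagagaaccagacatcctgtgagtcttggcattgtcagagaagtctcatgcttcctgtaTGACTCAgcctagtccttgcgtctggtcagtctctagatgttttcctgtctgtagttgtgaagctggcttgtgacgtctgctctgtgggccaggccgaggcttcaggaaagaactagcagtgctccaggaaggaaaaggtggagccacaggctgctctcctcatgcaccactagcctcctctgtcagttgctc

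Aligned with free ends, the 2 windows shared 255 of 286 columns (89.2% identity), with gaps in 8. Each holds TGACTCA, the AP-1 site bound by Fos, Jun and Batf family factors, 129 bases before the start in Ctla2a and 143 bases before it in Ctla2b. The STAT match lies 157 bases before the Ctla2a start shown, and the Ctla2b window has none. The same Ctla2a matches lie 188 bases (AP-1) and 216 bases (STAT) before the other start. Both strands were searched for these motifs, for the E-box CACGTG, for the IRF motif GAAANNGAA and for the ROR motif AGGTCA, all chosen after the members' windows had been read. Among 32817 RefSeq windows of the same length, 7.81% hold the AP-1 motif and 8.29% the STAT motif, so a match is a description of these letters and not a bound site.

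Th17 against Th0 gave the largest differences of the inhibitors. Ctla2b was 145-fold higher in Th17, the rank 3 increase among 11769 genes above the floor, and Ctla2a was 55.1-fold higher, at rank 14. By the shared probe set the difference was 67.9-fold. Treg against Th0 also showed them higher, 16.5-fold for Ctla2b, 20.8-fold for Ctla2a and 22.8-fold for the shared probe set, at ranks 24 and 16 for the genes. The IL-17 negative Treg array thus carried Ctla2 signal well above that of Th0.

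By deposited signals, the paralogues parted between the Th17-cultured arrays and both others. Against Treg, exFoxp3Th17 had 5.01-fold more Ctla2b signal, which was called, and 1.51-fold more Ctla2a signal, which was not. These log2 ratios, 2.32 and 0.60, lay 1.73 apart, beyond the 95th percentile of 1.12 for 2 probe sets of the same gene in that comparison. In Th17 against Th0 they lay 1.40 apart (95th percentile 1.13), with Ctla2b the larger. The Ctla2b signal in Th0 (21.1) was near the floor, so this gap rests on a dim value. With the floor as a pseudocount these ratios were 6.53 for Ctla2b and 5.59 for Ctla2a, closer together than that percentile. In Treg against Th0 the paralogues lay 0.33 apart, with Ctla2a the larger. In exFoxp3Th17 against Th17 both inhibitors were 1.75-fold lower and not called, with log2 ratios of -0.81 each. The shared probe set gave log2 ratios within 0.13 to 0.32 of those of Ctla2a in the 4 comparisons and within 0.16 to 1.41 of those of Ctla2b. Probe sequences were not analysed here, so how far the probe sets of these near copies measure each other was not tested.

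Ctsw, also named lymphopain, encodes a cathepsin of NK cells and cytotoxic T cells, found in the endoplasmic reticulum in human cells. Its single probe set had signals of 984.4 in exFoxp3Th17, 1358 in Th17, 502.0 in Treg and 20.4 in Th0. That made it 66.5-fold higher in Th17 than in Th0 (rank 10 of 11769) and 24.6-fold higher in Treg than in Th0 (rank 14). Its log2 ratios stayed within 0.24 to 0.37 of those of Ctla2a in all 4 comparisons, less than the 95th percentile for 2 probe sets of 1 gene. In exFoxp3Th17 against Treg it was 1.96-fold higher, just short of a call, and 1.38-fold lower in exFoxp3Th17 than in Th17.

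The genes whose profile over the 4 arrays was closest to these members were sought among 8430 genes that reached 4 times the floor (48.4), by Euclidean distance between log2 signals centred on each gene's mean. Closest to Ctla2b was the carboxypeptidase gene Cpd (distance 0.99), followed by the homing receptor gene Gpr15 (1.45) and Ahr (1.66), the aryl hydrocarbon receptor gene. For Ctla2a they were the syndecan gene Sdc4 (1.09), the AP-1 factor gene Fosl2 (1.18) and Cpd (1.23), and for Ctsw they were Cpd (1.12), Sdc4 (1.12) and Maf (1.32), a transcription factor gene. Cpd itself had signals of 1895 in exFoxp3Th17, 2290.5 in Th17, 389.7 in Treg and 41.2 in Th0. Fosl2, Ahr and Maf were also highest in Th17. Gpr15 (2163 in exFoxp3Th17 and 1161 in Th17) and Sdc4 (383.7 and 319.0) were instead highest in exFoxp3Th17. In Th0 both lay below the floor (6.9 and 9.7), and their distances use signals raised to it. Likeness over 4 arrays rests on 4 values per gene.

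Ctsc, Ctsl and Ctss formed the group led by exFoxp3Th17. Ctsc encodes dipeptidyl peptidase I, which activates granzymes by removing a dipeptide from their front end. Its brightest probe set had signals of 3408 in exFoxp3Th17, 1638 in Th17, 1229 in Treg and 1039 in Th0. The difference between exFoxp3Th17 and Th17 was 2.08-fold and was the only call among the 9 measured members in that comparison, where 7.48% of genes were called higher and 7.27% lower. Against Treg it was 2.77-fold. Both other Ctsc probe sets gave wider differences. The dimmer of them had signals of 81.4 in exFoxp3Th17 and 15.2 in Th17 and lay below the floor in Treg (6.8) and Th0 (9.9), and the other read 182.7, 35.8, 19.3 and 19.0 on the 4 arrays in the same order. They were 5.35-fold and 5.10-fold higher in exFoxp3Th17 than in Th17, and at least 6.72-fold and 9.48-fold higher than in Treg. All 3 probe sets put exFoxp3Th17 first.

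Ctsl encodes cathepsin L, a lysosomal endopeptidase that cuts the invariant chain in thymic epithelium and whose relatives the Ctla2 proteins inhibit. It had signals of 726.4 in exFoxp3Th17, 379.2 in Th17, 140.8 in Treg and 113.7 in Th0. It was 5.16-fold higher in exFoxp3Th17 than in Treg (rank 195) and 3.34-fold higher in Th17 than in Th0 (rank 407), while exFoxp3Th17 exceeded Th17 by 1.92-fold and was not called. Treg and Th0 differed by 1.24-fold. Its second probe set was below the floor on all 4 arrays (2.4 to 7.6) and gave no ratio; averaged with it, the Th17 over Th0 log2 ratio of 1.74 dropped to 0.87, under 2-fold.

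Ctss, the gene of cathepsin S, which degrades the invariant chain in antigen-presenting cells, has 1 probe set. Its signals were 3557 in exFoxp3Th17, 2307 in Th17, 1698 in Treg and 1481 in Th0. The difference between exFoxp3Th17 and Treg, 2.10-fold, was called. Those with Th17 (1.54-fold) and of Th17 with Th0 (1.56-fold) were not. With equal medians of expressed probe sets its log2 ratio to Treg was 0.98, which ends the call.

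The RefSeq windows of these genes, shown because the 3 shared an order over the populations, lie at chr7:88277835-88278134 (plus strand) for Ctsc, chr13:64370471-64370770 (minus strand) for Ctsl and chr3:95526536-95526835 (plus strand) for Ctss. Capitals mark a STAT match in Ctsc, an E-box in Ctsl, and a ROR motif followed by an IRF match in Ctss.
Ctsc: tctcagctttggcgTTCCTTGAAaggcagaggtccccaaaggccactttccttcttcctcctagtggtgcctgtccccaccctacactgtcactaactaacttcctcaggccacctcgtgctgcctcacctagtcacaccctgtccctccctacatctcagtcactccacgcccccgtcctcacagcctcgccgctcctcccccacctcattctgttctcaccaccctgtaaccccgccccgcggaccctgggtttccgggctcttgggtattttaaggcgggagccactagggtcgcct
Ctsl: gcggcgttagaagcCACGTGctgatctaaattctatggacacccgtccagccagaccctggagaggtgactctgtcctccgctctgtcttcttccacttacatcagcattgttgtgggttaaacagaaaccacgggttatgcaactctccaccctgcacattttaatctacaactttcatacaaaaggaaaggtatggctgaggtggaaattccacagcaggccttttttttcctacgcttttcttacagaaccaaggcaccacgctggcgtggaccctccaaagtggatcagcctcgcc
Ctss: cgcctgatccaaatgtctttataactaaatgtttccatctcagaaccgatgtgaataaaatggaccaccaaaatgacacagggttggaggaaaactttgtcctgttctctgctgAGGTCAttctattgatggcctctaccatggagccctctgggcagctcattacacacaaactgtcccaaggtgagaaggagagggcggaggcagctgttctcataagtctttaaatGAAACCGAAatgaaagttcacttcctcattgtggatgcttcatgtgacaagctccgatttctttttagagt

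No motif of the 5 was common to the 3 windows. The STAT match of Ctsc lies 236 bases before the start, and so does the E-box of Ctsl, whose core CACGTG is that of the element bound by Tfeb and related lysosomal regulators. Neither the Ctsc nor the Ctsl window is at the outermost start that RefSeq gives for the gene. Their distances are therefore from an inner start, and the matches need not lie outside the gene. The Ctss window is at the outermost start. In Ctss the IRF match GAAACCGAA lies 21 bases before the start and the ROR motif 136 bases before it. Shares of all windows were 7.15% for the E-box, 8.55% for the IRF motif and 16.3% for the ROR motif. The Ctsz window holds none of the 5, and Ctsb, Ctsh and Ctsw have no window here.

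The protease and its inhibitors changed by unequal amounts. In Th17 against Th0, the log2 ratio of Ctsl was 1.74, against 5.78 for Ctla2a and 7.18 for Ctla2b. In exFoxp3Th17 against Th17 the signs differed: Ctsl was at 0.94 and the inhibitors at -0.81, a separation of 1.74 to 1.75 in log2 units where the 95th percentile for probe sets of 1 gene is 0.99. None of these 3 log2 ratios reached 2-fold alone, and that percentile does not give the spread between different genes. Against Treg, the log2 ratios of Ctsl (2.37) and Ctla2b (2.32) were 0.04 apart in exFoxp3Th17, and that of Ctla2a (0.60) was 1.77 below Ctsl.

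Ctsd, Ctsz and Ctsb varied less. Ctsd encodes cathepsin D, an aspartic protease of lysosomes and the only member that is no cysteine protease among the cathepsins here. It had signals of 298.8 in exFoxp3Th17, 230.5 in Th17, 269.4 in Treg and 463.6 in Th0, so that Th0 stood above the other arrays. Th17 was 2.01-fold lower than Th0, the only lower call among the members in any of the 4 comparisons, and it was lost with equal medians (log2 ratio -0.95) and with the floor as a pseudocount (-0.97). Treg was 1.72-fold lower than Th0. Its window, at chr7:142387778-142388077 (minus strand), is shown as that of the member highest in Th0 and for its 2 E-boxes, the first of which overlaps a ROR motif on the other strand.
Ctsd: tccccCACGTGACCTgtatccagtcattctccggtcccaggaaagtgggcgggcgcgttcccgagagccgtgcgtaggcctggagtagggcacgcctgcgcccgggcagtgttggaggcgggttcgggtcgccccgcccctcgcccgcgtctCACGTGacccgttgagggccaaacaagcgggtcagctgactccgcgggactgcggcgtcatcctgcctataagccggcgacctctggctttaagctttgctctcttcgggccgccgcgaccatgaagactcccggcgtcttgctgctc

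The E-boxes lie 245 and 98 bases before the Ctsd start. Ctsz encodes cathepsin Z, a carboxypeptidase. Its brightest probe set had signals of 850.8 in exFoxp3Th17, 1136 in Th17, 1305 in Treg and 689.5 in Th0, making Treg the highest. No difference was called, the largest being 1.89-fold between Treg and Th0, and its 2 other probe sets ran the same way in each comparison. With equal medians the Treg over Th0 log2 ratio was 1.01, which passes 2-fold.

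Ctsb, the gene of cathepsin B, an endopeptidase and carboxydipeptidase, was the flattest: 635.5 in exFoxp3Th17, 655.0 in Th17, 533.5 in Treg and 530.5 in Th0. Its 4 other probe sets were dimmer. The dimmest of these was 2.61-fold higher in exFoxp3Th17 (38.1) than in Th17 (14.6), while the second brightest gave 259.4 and 236.1, or 1.10-fold. Ctsh, which encodes an aminopeptidase, had signals of 0.4 to 9.1 over both of its probe sets, all below the floor.

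**Figure D2:**
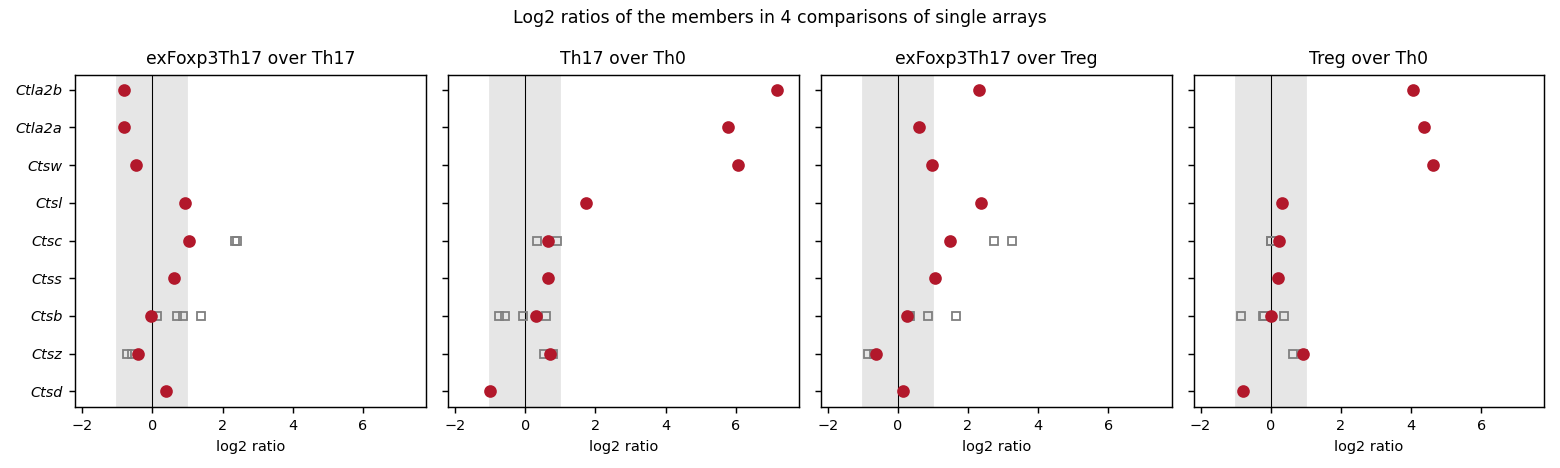
Log2 ratio (horizontal axis) of each of the 9 members above the floor in the 4 comparisons; red circles are the brightest probe set, open grey squares other probe sets that passed the floor on any array, and the grey band marks differences under 2-fold. Ctla2b, Ctla2a and Ctsw lie between 4.05 and 7.18 in both comparisons with Th0, and in exFoxp3Th17 over Th17 only Ctsc leaves the band by its brightest probe set.

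Counted over the 9 measured members, 4 were higher in Th17 than in Th0 (Ctla2a, Ctla2b, Ctsw and Ctsl) and 1 was lower, where 8.22% of all genes were called higher and 6.88% lower. The median log2 ratio was 0.72, and -0.02 over all genes. In exFoxp3Th17 against Treg 4 were higher (Ctsl, Ctla2b, Ctsc and Ctss) and none lower, against a background of 11.3% and 9.94%, with medians of 0.97 and 0.02. In Treg against Th0 3 were higher (Ctsw, Ctla2a and Ctla2b) and none lower, against 5.56% and 4.95%, with medians of 0.31 and -0.01. The median in exFoxp3Th17 against Th17 was -0.04, and 0.03 over all genes. Comparisons that share an array are not independent of each other.

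Th0 had the lowest signal for 8 of the 9 members, as it did for 22.5% of the 9220 genes above the floor on all 4 arrays. Among these genes the order Th17, exFoxp3Th17, Treg, Th0 held for 4 members (Ctla2a, Ctla2b, Ctsw and Ctsb) and 4.33% of genes. The order exFoxp3Th17, Th17, Treg, Th0 held for 3 members (Ctsc, Ctsl and Ctss) and 7.20% of genes. Both percentages describe these arrays, and the members had been chosen with these signals known. All these orders are those of the brightest probe sets. In Ctsb, Treg was only 1.01-fold above Th0, and exFoxp3Th17 and Th17 differed by 1.03-fold. Dim probe sets of Ctsb were lowest in Treg or in Th17, while its second brightest was lowest in Th0. A dimmer Ctsz probe set was lowest in exFoxp3Th17 (175.8, and 179.4 in Th0).

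**Figure D3:**
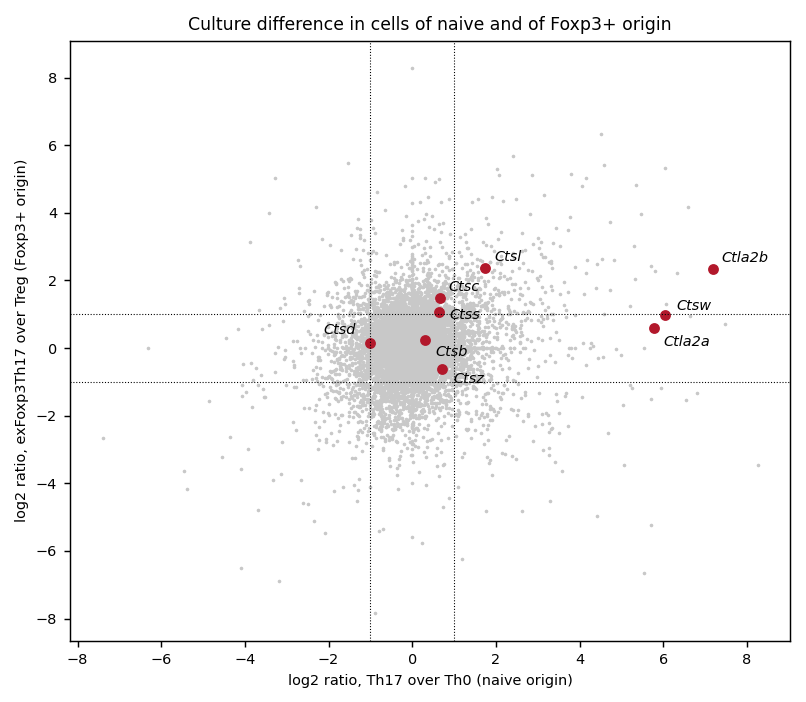
Log2 ratio of exFoxp3Th17 over Treg (vertical, cells of Foxp3+ origin) against that of Th17 over Th0 (horizontal, cells of naive origin), which share no array; grey points are the 11769 genes above the floor, red points the 9 members, and dotted lines mark 2-fold. Ctsl and Ctla2b are above 2-fold on both axes, while Ctsw and Ctla2a sit far to the right with vertical values of 0.97 and 0.60.

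These 2 comparisons share no array, and they set Th17 conditions against Treg culture in cells of Foxp3+ origin and against Th0 culture in cells of naive origin. The gates differ too, and only the first of them sets arrays of unlike Xist signal against each other. Ctsl and Ctla2b were called higher in both. Ctsw and Ctla2a were called in cells of naive origin only, and Ctsc and Ctss in cells of Foxp3+ origin only. The log2 ratio of each of these genes was above 0 in both. Against Treg, Ctsw at 1.96-fold was just short of a call and Ctss at 2.10-fold just past it. Of all genes, 8.22% were called higher in Th17 than in Th0 and 11.3% in exFoxp3Th17 than in Treg. The shares of all genes called in both, called in either comparison alone, or above 0 in both were not computed. It is therefore not known if the split among the members is uncommon. Whether the origins differ was not tested.

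Other genes of the same pathways were read from lists. Of the 6 other cathepsins, 4 lay above the floor on some array. Ctse, an aspartic endosomal protease, was within 2-fold throughout (2372 in exFoxp3Th17, 1531 in Th17, 1318 in Treg and 2485 in Th0). Ctsf, a lysosomal cysteine protease, had signals of 68.1 in exFoxp3Th17 and 52.9 in Th17 and lay below the floor in Treg (2.1) and Th0 (0.7), so that it was at least 5.62-fold higher in exFoxp3Th17 than in Treg and at least 4.37-fold higher in Th17 than in Th0. Ctso was 2.05-fold higher in exFoxp3Th17 than in Th17 (170.9 and 83.3) and 2.09-fold lower in Th17 than in Th0 (83.3 and 174.5). A second Ctso probe set passed 2-fold in all 4 comparisons, with log2 ratios of 1.26 in exFoxp3Th17 over Treg and -1.20 in Treg over Th0. The brightest gave 0.29 and -0.32 there and was not called. The 8 rodent placental cathepsins, which lie beside Ctla2a on chromosome 13 together with Tpbpa, were all below the floor on all 4 arrays, and so were Tpbpa and Tpbpb (0.7 to 8.1).

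Cystatins, the other family of cysteine protease inhibitors, varied less than the Ctla2 genes. Of 6 measured, 5 lay above the floor, and only Cst7 was called. Cst6 (13.6) and Stfa3 (14.3) passed the floor in Treg alone, too close to it for a call. Of all genes, 8.22% were called higher in Th17 than in Th0 and 5.56% higher in Treg than in Th0. Cst7 encodes cystatin F, an inhibitor of Ctsc in cytotoxic cells, and had signals of 227.0 in exFoxp3Th17, 202.6 in Th17, 222.6 in Treg and 89.8 in Th0, 2.26-fold higher in Th17 and 2.48-fold higher in Treg than in Th0. Cystatin B, encoded by Cstb, and cystatin C, encoded by Cst3, stayed within 2-fold, at 1611 to 2265 and 508.4 to 713.0.

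In the list for delivery and processing of lysosomal enzymes, 3 of 11 genes were higher in exFoxp3Th17 than in Th17, none lower, with a median log2 ratio of 0.58, where 7.48% of all genes were called higher, 7.27% lower and the median was 0.03. Lgmn, which encodes the asparaginyl endopeptidase legumain that trims several cathepsins, was 2.75-fold higher in exFoxp3Th17 than in Th17 (138.2 and 50.2) and 2.52-fold higher than in Treg (54.8). The sorting adaptor gene Gga2 was 2.35-fold higher in exFoxp3Th17 (96.2 and 40.9 in Th17). Igf2r, the cation-independent mannose 6-phosphate receptor that carries enzymes to lysosomes, was highest in Treg, with 288.1 in exFoxp3Th17, 140.0 in Th17, 648.8 in Treg and 321.0 in Th0. It was called in all 4 comparisons: higher in exFoxp3Th17 than in Th17 (2.06-fold) and in Treg than in Th0 (2.02-fold), lower in Th17 than in Th0 (2.29-fold) and in exFoxp3Th17 than in Treg (2.25-fold).

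Of the 8 genes in the list of lysosome membrane proteins and their transcription factors, none was called between exFoxp3Th17 and Th17 by its brightest probe set. Other probe sets of Scarb2 (log2 ratio 1.30), a receptor that carries an enzyme to lysosomes, and of the cholesterol carrier gene Npc2 (1.27) passed 2-fold there. Among the transcription factors of the list, Tfeb was 3.99-fold lower in Th17 than in Th0 (14.7 and 58.6), and Tfe3 was 3.76-fold higher in exFoxp3Th17 than in Treg (143.6 and 38.2). Against Treg, exFoxp3Th17 had 2 of the 8 higher, 1 lower and a median log2 ratio of 0.46 by the brightest probe sets, where 11.3% of all genes were called higher, 9.94% lower and the median was 0.02. Other probe sets of Lamp2 (1.07 and 1.23), Scarb2 (1.01) and Npc2 (1.52) passed 2-fold there. Further ones of Lamp2 (0.56), Npc2 (0.67 and 0.00) and Mitf (-0.17) did not.

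Granzymes, the clients of Ctsc, and perforin were highest in Treg by the brightest probe sets that passed the floor. All 4 that lay above the floor were lower in exFoxp3Th17 than in Treg and higher in Treg than in Th0 by their brightest probe sets, although a second probe set of the perforin gene Prf1 was at a log2 ratio of -0.73 in Treg over Th0. Of all genes, 9.94% were called lower in the first comparison and 5.56% higher in the second, and Gzma and Gzmc passed the floor in Treg alone, so that they could differ there in 1 direction only. Gzmb was at 1.1 in exFoxp3Th17, 11.0 in Th17, 2781 in Treg and 22.5 in Th0, and Gzma at 1.4, 2.4, 109.0 and 9.7. Both granzymes were below the floor in exFoxp3Th17, the array with the highest Ctsc signal, and in Th17 as well. Of 5 genes of the invariant chain and class II loading list, H2-Oa, which encodes a chain of an inhibitor of peptide loading, was 2.36-fold higher in exFoxp3Th17 than in Th17 (243.7 and 103.1) and 3.26-fold higher than in Treg (74.8). It was also high in Th0 (174.6), 2.33-fold above Treg. H2-Ob was 2.13-fold lower in Th17 than in Th0 (27.9 and 59.4). Of all genes, 7.48% were called higher in exFoxp3Th17 than in Th17, 11.3% higher than in Treg and 6.88% lower in Th17 than in Th0. Cd74, the invariant chain itself, was at 36.4, 23.1, 41.4 and 16.7 on the 4 arrays, 2.48-fold higher in Treg than in Th0.

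**Figure D4:**
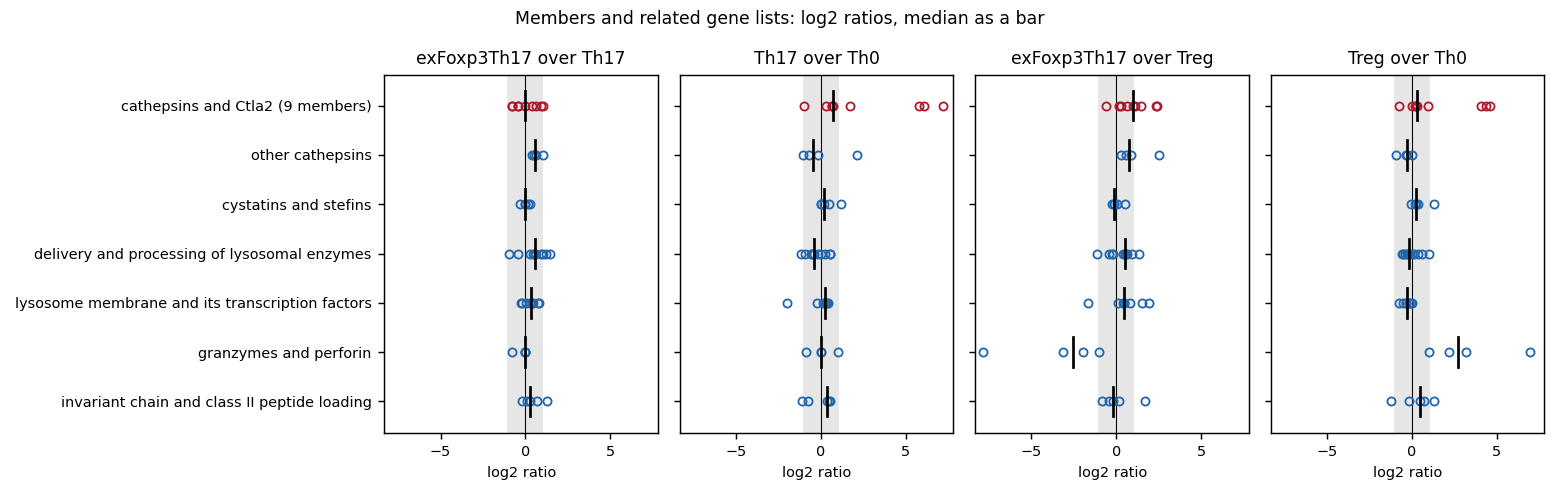
Log2 ratios (horizontal axis) of the members and of genes in 6 related lists that lay above the floor on some array, in the 4 comparisons; each circle is a gene, each black bar a list median, and the grey band marks differences under 2-fold. The members include 3 genes between 4.05 and 4.62 in Treg over Th0, and granzymes and perforin lie to the left of 0 in exFoxp3Th17 over Treg.

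Macrophages and dendritic cells are rich in cathepsins, so their markers were read on the same arrays. Of 7 macrophage and monocyte markers measured, 1 lay above the floor in exFoxp3Th17, 2 in Th17, 2 in Treg and 3 in Th0, and their summed signals were 43.3, 54.6, 51.9 and 107.4. Lyz2, Itgam and Cd14 were below the floor on all arrays. No marker of this list read above 32.2 (Adgre1 in Th0), and the part of such cells in the cathepsin signals was not tested. Of 6 dendritic cell markers, 3 passed the floor on some array, with summed signals of 38.7 in exFoxp3Th17, 143.4 in Th17, 30.3 in Treg and 55.3 in Th0. Batf3, which T cells also use, was at 113.6 in Th17. B cell, neutrophil and NK cell markers each had 1 gene above the floor on some array, with sums of 7.1 to 69.8 over the lists and arrays. The 2 CD8 T cell markers summed to 66.0 to 97.0. Of these, Cd8b1 was above the floor on all 4 arrays (64.9 in exFoxp3Th17, 83.5 in Th17, 51.7 in Treg and 64.6 in Th0). Cd8a read at most 14.3. The part of such cells in the Ctsw signal was not tested. In bulk RNA, fewer cells of a type and less RNA per cell cannot be told apart.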

How the data were processed

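The deposited values are signal intensities per probe set on a linear scale, made by the authors with MAS5 as the submitters' processing notes say, with no version named in the sources used here. RNA (1 µg per sample) was labelled with biotin, per the labels' protocols. The mean, trimmed by 2% of probe sets at either end, was 100.0 on each array, and this scaling was kept. The table holds 45101 probe sets, 64 of them controls. Of the rest, 34945 have 1 gene symbol in the platform annotation, 932 several and 9160 none; symbols were updated through RefSeq, where 34741 identifiers matched. Probe sets with several symbols named no gene, except the one listing only Ctla2a and Ctla2b.

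Signals below the floor (12.1) were raised to it before log2. Folds are written "at least" where the dimmer array was below the floor. Of 18193 genes, 11769 lay above the floor. No test was run, since each group has 1 array, and the number of arrays limits the precision. Calling was run on simulated arrays with known folds and an assumed noise, with probe sets chosen on floored signals. Recovery was required only at folds well above 2-fold, so the run says nothing of calls near 2-fold. Python 3.11.15, numpy 2.4.6, pandas 2.3.3 and matplotlib 3.10.9 were used.

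Members and lists were chosen with earlier results of these data known. Named genes are the 10 members, Foxp3 and Il17a, up to 4 called genes per list and comparison that reached 48.4, and the 3 genes nearest to Ctla2a, Ctla2b and Ctsw; Ctsh, below the floor, had no profile to match. Xist, Eif2s3y, Tpbpa, Tpbpb, Ctse, Cstb, Cst3, Cd74 and the markers named were added after their values were seen. The disagreement between probe sets, the shares of genes by array order and the differences between member pairs were also added then. The brightest probe set of a gene was first chosen on floored signals, and choosing on deposited signals was adopted after both results were known. The 5 motifs were chosen after the members' promoter sequences had been read, and the IRF motif was shortened after a longer, rarer form had been searched. Promoter windows (GRCm38.p6) are from RefSeq, which holds them for 7 of the members. Alternatives were 2 other scalings, other floors, 3-fold and averaged probe sets.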

Additional observations from a re-analysis of the deposited data

Results flagged for a closer look

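Between Th17 conditions and the other culture of the same origin, the log2 ratio of Ctsz and Ctsd had opposite signs in cells of Foxp3+ origin (exFoxp3Th17 over Treg) and of naive origin (Th17 over Th0). The other cultures and their gates differ between the origins, and so does the Xist signal within the first comparison. The difference was not tested, since each population has 1 array. The share of all genes with opposite signs was not computed, so whether this is uncommon is not known. Over all genes the median log2 ratios were 0.02 for exFoxp3Th17 over Treg and -0.02 for Th17 over Th0. For Ctsz the log2 ratios were -0.62 in cells of Foxp3+ origin and 0.72 in cells of naive origin by the brightest probe set, and the 2 other probe sets gave -0.85 against 0.79 and -0.67 against 0.55. None of these values reached 2-fold. For Ctsd they were 0.15 and -1.01, so the first is close to 0.

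For Ctsb the brightest probe set was above 0 in both origins, so the gene as read here showed no such opposition, while 3 dim probe sets were above 0 in cells of Foxp3+ origin and below 0 in cells of naive origin: 1.66 against -0.59, 0.84 against -0.08 and 0.30 against -0.75. Their signals were 12.1 to 39.2, near the floor.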

How the results depend on the processing

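Of 320 recomputed log2 ratios of members, 317 moved by less than the 95th percentile of disagreement between 2 probe sets of a gene, and 0 called ratios changed sign. The 3 that moved more were Ctsl in exFoxp3Th17 over Treg with the mean of its probe sets (1.18, the second being below the floor), and Ctsh without a floor in exFoxp3Th17 over Th17 (1.95) and Treg over Th0 (1.25). Many of the 320 could hardly move. A changed floor leaves bright signals nearly as they were, and averaging leaves the 5 members with 1 probe set unchanged. That percentile is also about as wide as a 2-fold difference, so the count of 317 does not show that calls hold. Calls near 2-fold depended on the setting. In exFoxp3Th17 over Th17 the higher members were 1 in the main setting, 2 without a floor (Ctsc and Ctsh) and 0 at 3-fold; the Ctsc log2 ratio was 1.00 to 1.94 over the settings. In Th17 over Th0 the lower members were 1 in the main setting (Ctsd) and 0 with equal medians, with the floor as a pseudocount and at 3-fold. In exFoxp3Th17 over Treg the higher members were 4 in the main setting, 5 under quantile normalization, where Ctsw passed 2-fold (log2 ratio 1.03), 3 with equal medians and 2 at 3-fold (Ctsl and Ctla2b). Choosing the brightest probe set on floored signals, an alternative added after seeing the data, put 11841 genes above the floor, against 11769, and changed 0 member calls. Both other scalings moved the median of all genes by less than 0.1 in log2 units. No paired analysis was possible because each population has 1 array. Without replicates, signal over background and the number of arrays set the limits, and differences near 2-fold are the least certain.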
